A study of Drosophila melanogaster with 20 samples.

Results

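The superoxide dismutase (SOD) genes of Drosophila were examined in flies that over-expressed one of them. The listed genes were Sod1 (CG11793), Sod2 (CG8905) and Sod3 (CG9027), and a probe set was taken for a gene where the platform annotation names that gene alone. This rule gave 4 probe sets of the 14010 on the array, 1 for Sod2 (151875_at) and 3 for Sod3 (141909_at, 142398_at and 142399_at). No probe set was named for Sod1, alone or with another gene, so 2 of the 3 listed genes were measured and Sod1 was not analysed here.

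Respiring cells leak superoxide, a reactive form of oxygen that damages iron-sulfur enzymes. SODs dispose of it by a reaction whose peroxide product is left to other enzymes, among them catalase. Sod1 is the copper and zinc enzyme of the cytosol, Sod2 (MnSOD) is the manganese enzyme of the mitochondrial matrix, and Sod3 is an extracellular copper and zinc enzyme. Flies that lack Sod1 or Sod2 are sensitive to oxidative stress and short-lived.

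The study asked how transcription changes when MnSOD over-expression in adults lengthens life, with RNA of 30 adult males per sample on 20 Affymetrix arrays, 4 in each of 5 groups. The transgenic flies were progeny of MnSOD(2)22, a line with a single insertion of the Sod2 cDNA behind a doxycycline (DOX)-responsive promoter, and of the transactivator line rtTA(3)E2, whose rtTA protein is made in all tissues and acts when DOX is present. MnSOD -DOX flies were taken at day 73, MnSOD +DOX flies at day 73 (the same chronological age) and at day 83 (the same physiological age, at about equal survival). Control flies were progeny of Oregon R and rtTA(3)E2, with or without DOX, so all 5 groups carried the transactivator. Their sample labels give day 73 and the design text gives day 78. The labels call the 4 samples of a group biological replicates and do not say whether each had a culture of its own, so p-values here measure how much these samples differ, which may be technical.

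Values are log2 RMA values, in which a difference of 1 is a 2-fold difference. The level of one probe set was not set against that of another, because probe sets differ in binding. A change was called where the limma fit put its adjusted p below 0.01 and the fold reached 1.2, and single probe sets were also compared by a two-sided exact permutation test of 4 against 4 arrays. The smallest p this test allows is 0.0286, and it was run 24 times, over 4 probe sets and 6 comparisons, with no correction. It was also run 18 times on differences between Sod3 probe sets, with Benjamini-Hochberg correction.

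Array medians lay between 5.49 and 5.68, and any 2 arrays correlated at 0.957 to 0.997 across probe sets. Control +DOX replicates 1 to 3 stood apart: their mean over 9 bacterial spike-in probe sets was 8.41, 7.98 and 8.09, against 9.69 on replicate 4 and 9.36 to 10.24 on the 16 arrays of the other groups. Markers of testis and accessory gland were well measured on every array, with mean levels of at least 9.31 and 6.998, as fits adult males. The yolk and fat body list, which includes female yolk protein genes, had mean levels of 6.33 to 6.71. Of 38 marker genes for 9 tissues or cell types, 33 were measured.

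Sod2 was induced strongly and evenly by DOX in the MnSOD line. Its values were 8.42, 8.36, 8.47 and 8.42 without DOX at day 73. With DOX at day 73 they were 12.57, 12.36, 12.61 and 12.42, and at day 83 they were 12.24, 12.26, 12.24 and 12.22. Every induced array lay above every uninduced array by several log2 units. The rise was 4.07 at day 73, which is 16.8-fold (95% confidence interval 14.7 to 19.3, adjusted p = 3.76e-19, exact permutation p = 0.0286). At day 83, against the same day 73 flies without DOX, it was 3.82, or 14.1-fold (95% confidence interval 12.3 to 16.2, adjusted p = 1.59e-18, exact permutation p = 0.0286). No flies without DOX were taken from the MnSOD line at day 83. Age and induction thus differ together in every day 83 change against MnSOD -DOX flies, and cannot be told apart there. Of all probe sets, 0.2% were called higher and 0.464% lower at day 73, and 3.01% higher and 6.26% lower at day 83. The probe set may read the transgene and the resident gene alike, and the 2 transcripts cannot be told apart here. In whole flies, a change in the number of cells that express a gene and a change in RNA per cell cannot be told apart either.

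**Figure D1:**
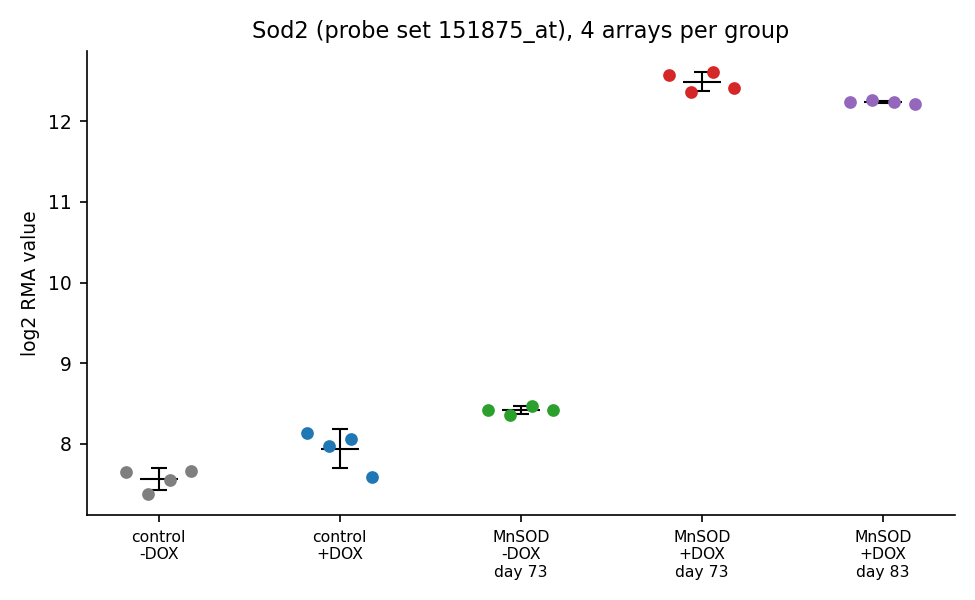
Log2 RMA value of Sod2 on each of the 20 arrays (points), with the mean and SD of each group (bars), for 5 groups of 4 arrays. The 8 arrays of MnSOD +DOX flies lay at 12.22 to 12.61, and the 4 of MnSOD -DOX flies at 8.36 to 8.47.

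Between the induced groups, Sod2 was at a slightly lower level at day 83 than at day 73. All 4 arrays at day 83 were below all 4 at day 73, by 0.25 on average (95% confidence interval of the change -0.45 to -0.06). This difference was not called (adjusted p = 0.0724 over all probe sets, exact permutation p = 0.0286). In the same comparison 0.949% of probe sets were called higher and 2.74% lower. The spread was also smaller at day 83, where the SD was 0.0175 (n = 4), than at day 73, where it was 0.120 (n = 4), and no test of the spread was made.

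Sod2 was also higher in the MnSOD line before induction. Its values in control -DOX flies were 7.66, 7.38, 7.56 and 7.67. In control +DOX flies they were 8.14, 7.98, 8.07 and 7.59. All 4 arrays of MnSOD -DOX flies, at 8.36 to 8.47, lay above all 8 control arrays, at 7.38 to 8.14. Without DOX the difference between the lines was 0.85, or 1.81-fold (95% confidence interval 1.58 to 2.07, adjusted p = 1.71e-06, exact permutation p = 0.0286). There 3.21% of probe sets were called higher in the MnSOD line and 3.33% lower. As labelled, DOX changes of Sod2 in control flies run opposite to the direction the study describes for DOX, and the labels and files used here do not show which naming of the control groups is right. Values with both control groups exchanged are therefore given too, and so exchanged the difference was 0.48 (adjusted p = 0.00090). With DOX at day 73 the lines differed by 4.55, or 23.4-fold (adjusted p = 3.16e-20), where 5.36% of probe sets were called higher and 6.7% lower. Markers of tissues moved between the lines too, with 5 of the 33 measured called higher and 8 lower without DOX. The mean of 3 muscle markers was 9.07 to 9.16 in MnSOD -DOX flies and 7.80 to 8.32 in control -DOX flies, with 2 of the 3 called higher, and 4 of 6 testis markers were called lower. The lines differ in parentage, and only the MnSOD line carries the Sod2 transgene. By Northern blot, in flies cultured for a week, the study detected no leaky transgene expression without DOX. Among the study's transgenic lines, its quantified blot values without DOX were nevertheless highest for the MnSOD line used here. The study's text gives no such blot value for control flies. The mean difference between 3' and 5' probe sets of 3 control transcripts was 1.96 to 3.35 in control -DOX flies and 1.40 to 1.80 in MnSOD -DOX flies. By the design text the control flies were taken at day 78. The part of leaky transgene expression, of age, of the 3' to 5' difference, of tissue make-up or of background in the Sod2 difference was not tested.

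The levels of Sod2 thus ran, in rising order, from control -DOX (7.56 ± 0.135, SD, n = 4) over control +DOX (7.94 ± 0.243), MnSOD -DOX (8.42 ± 0.0477) and MnSOD +DOX at day 83 (12.24 ± 0.0175) to MnSOD +DOX at day 73 (12.49 ± 0.120). With the control groups exchanged the first 2 places turn. Of neighbours in this order, the 2 control groups overlapped, since control +DOX replicate 4 lay among the control -DOX arrays. The groups at day 83 and day 73 did not overlap, with a difference that was not called.

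Sod3, the dismutase measured beside Sod2, was not called with induction at day 73 of age in any of its 3 probe sets. Of the 3, 0 had an unadjusted p under 0.05. For 141909_at the MnSOD -DOX arrays read 5.19, 5.31, 5.23 and 5.15. The MnSOD +DOX arrays at day 73 read 5.08, 5.18, 5.17 and 5.11. These 2 ranges overlapped, and 141909_at was below the array median on all 20 arrays. The change was -0.08 (95% confidence interval -0.27 to 0.10, adjusted p = 0.911).

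For 142398_at the values were 6.89, 6.88, 6.85 and 6.81 without DOX. With DOX at day 73 they were 6.60, 6.83, 6.89 and 6.84. Apart from the low first array, the induced arrays fell within or close to the uninduced range, and the change was -0.07 (95% confidence interval -0.23 to 0.09, adjusted p = 0.914). For 142399_at the values were 7.80, 7.71, 7.73 and 7.63 without DOX. With DOX at day 73 they were 7.63, 7.74, 7.64 and 7.73, and both groups covered much the same range. The change was -0.03 (95% confidence interval -0.22 to 0.16, adjusted p = 0.980). In folds, the 3 intervals reached from 0.832 at the lowest bound to 1.11 at the highest, so these arrays exclude neither a small fall nor a small rise of Sod3 RNA within those bounds.

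**Figure D2:**
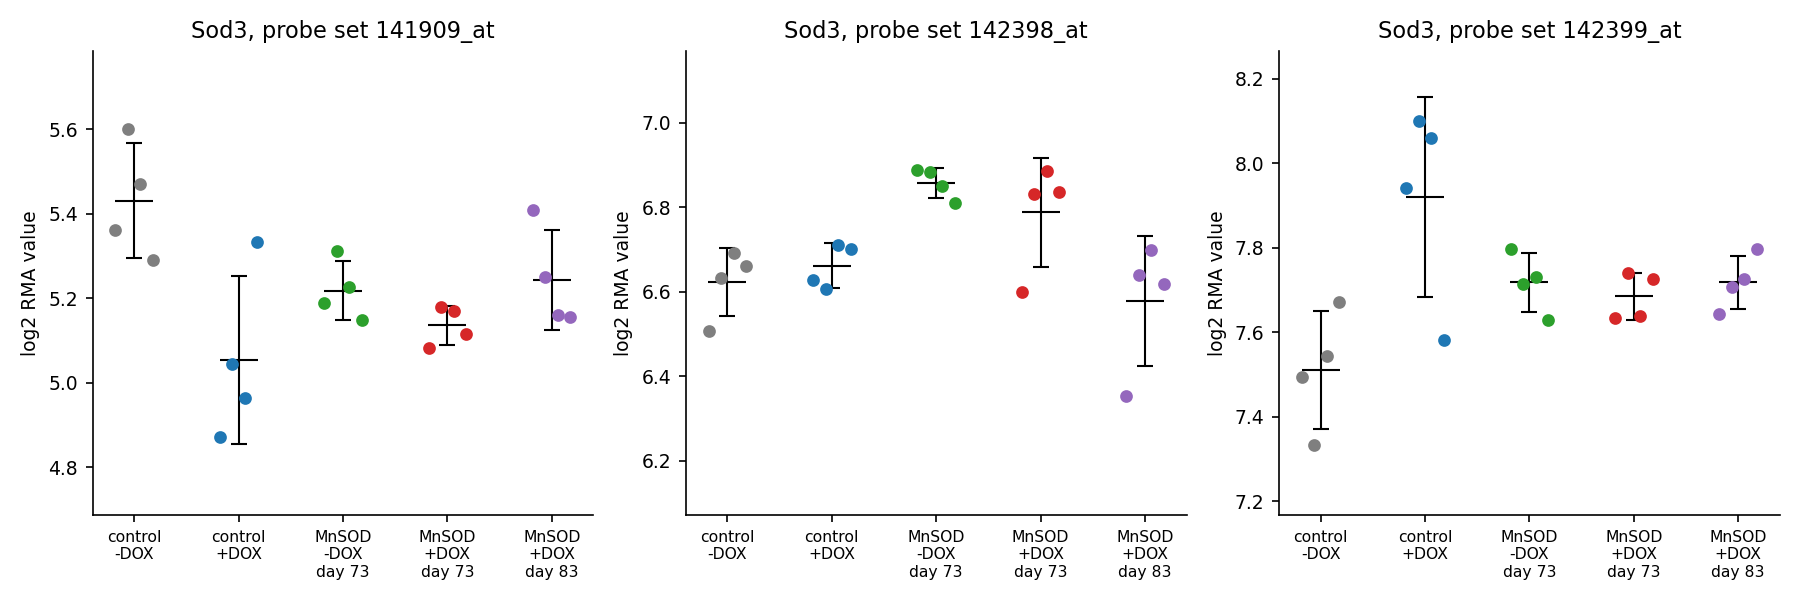
Log2 RMA value of the 3 Sod3 probe sets on each array (points), with the mean and SD of each group (bars), each panel spanning the same range of log2 units. The MnSOD groups overlapped at day 73 in all 3 panels, and control +DOX replicate 4 lay apart from replicates 1 to 3 for 141909_at and 142399_at.

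At day 83 only 142398_at differed in level from MnSOD -DOX flies without overlap. It read 6.35, 6.64, 6.70 and 6.62, and all 4 arrays were below the 4 of MnSOD -DOX flies. The change was -0.28 (standard error 0.0772, 95% confidence interval -0.44 to -0.12, exact permutation p = 0.0286), which was not called because its adjusted p was 0.0131. The first of these arrays also had the lowest array median of the 20, at 5.49, and without it the change was -0.21 (adjusted p = 0.0516). Against induced flies at day 73 the change of 142398_at was -0.21 (adjusted p = 0.0691). In the same flies 141909_at read 5.41, 5.25, 5.16 and 5.16, and 142399_at read 7.64, 7.71, 7.73 and 7.80. Neither moved beyond its spread, with changes of 0.03 (95% confidence interval -0.16 to 0.21) and 0.00 (95% confidence interval -0.19 to 0.19).

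Tissue markers also shifted at day 83, where 5 of the 33 measured were called higher and 7 lower. Over all probe sets 3.01% were called higher and 6.26% lower. Of 5 accessory gland markers 4 were called lower, with a mean level of 6.998 to 7.63 against 7.83 to 8.08 in MnSOD -DOX flies. Of 6 testis markers 5 were called higher (9.77 to 10.02 against 9.31 to 9.58), and 2 of 3 midgut protease genes were called lower (8.67 to 9.21 against 9.25 to 9.76). Of 3 neuron markers 1 was called lower. At day 73, 1 of the 33 measured markers was called, an ejaculatory bulb gene. The part of these shifts in the day 83 value of 142398_at was not tested. Age and time on DOX differ together between day 73 and day 83 and cannot be told apart. Against MnSOD -DOX flies, taken at day 73, age and induction differ together too.

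The 3 probe sets of Sod3 did not move together over the 20 arrays. Values of 141909_at correlated at -0.82 with 142399_at and at -0.20 with 142398_at, and the last 2 correlated at 0.10. Differences between 2 Sod3 probe sets were compared between groups in 18 exact permutation tests. The lowest Benjamini-Hochberg adjusted p of these was 0.129. The smallest p this test allows is 0.0286, so with 18 tests a single comparison could not pass after correction. These tests therefore cannot show whether the probe sets differ in any 1 comparison. RefSeq lists 5 transcripts for Sod3 and 2 for Sod2, and the files do not say which of them each probe set reads. Over the 20 arrays, values of 141909_at spanned 0.73 log2 units, those of 142398_at spanned 0.54 and those of 142399_at spanned 0.77. Sod2 spanned 5.24. Within groups, the pooled SD of the 3 Sod3 probe sets was 0.101 to 0.132, against 0.137 for Sod2. That of Sod2 includes control +DOX flies, where its SD was 0.243. A like SD does not show that Sod3 was measured as well as Sod2.

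DOX in control flies was the only comparison in which Sod3 was called, and its probe sets were called in opposite directions. In control -DOX flies 141909_at read 5.36, 5.60, 5.47 and 5.29. In control +DOX flies it read 4.87, 5.04, 4.96 and 5.33. Replicates 1 to 3 with DOX were below every array without it, and replicate 4 lay among them. The change was -0.38 (standard error 0.0886, adjusted p = 0.00209, exact permutation p = 0.0571). With both control groups exchanged, the sizes of all DOX changes in control flies stay and the signs turn, so this one becomes 0.38.

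The probe set 142399_at went the other way. It read 7.49, 7.33, 7.54 and 7.67 without DOX. With DOX it read 7.94, 8.10, 8.06 and 7.58, so replicates 1 to 3 were above every control -DOX array and replicate 4 lay among them. The change was 0.41 (standard error 0.0917, adjusted p = 0.00146, exact permutation p = 0.0571). As labelled, 142399_at and Sod2 go against the direction that the study describes for DOX in control flies, and 141909_at does not. The third probe set, 142398_at, read 6.51, 6.63, 6.69 and 6.66 without DOX and 6.63, 6.61, 6.71 and 6.70 with it, a change of 0.04 (adjusted p = 0.697). Sod2 was higher with DOX by 0.38 (adjusted p = 0.00312, exact permutation p = 0.0857). In this comparison 12.1% of all probe sets were called higher and 14.1% lower, so 2 called probe sets of 3 for Sod3 stood in a setting where calls were common.

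These control changes moved with the arrays that stood apart. Replicates 1 to 3 of control +DOX carried both the low spike-in signal and the shifted values of Sod2, 141909_at and 142399_at, while replicate 4, with a spike-in mean of 9.69, had values within the control -DOX range for these 3 probe sets. With spike-in signal added to the fit as a covariate, the changes were 0.068 for Sod2 (adjusted p = 0.795), -0.085 for 141909_at (adjusted p = 0.714) and 0.040 for 142399_at (adjusted p = 0.852). With replicate 4 as the single control +DOX array they were 0.027, -0.10 and 0.070. Small values here follow from the place of replicate 4 within the control -DOX range. That last fit also assumes that the lone array varies like the other groups. Low spike-in signal was found on control +DOX arrays alone, so neither fit can separate a change with DOX from one of these arrays. Other control probe sets moved as well, with 18S rRNA at 8.84, 3.94, 5.44 and 3.37 on control +DOX replicates 1 to 4 and 3.41 to 3.51 on control -DOX arrays. The mean difference between 3' and 5' probe sets of 3 control transcripts was 1.05 to 1.88 with DOX and 1.96 to 3.35 without. Among the 33 measured tissue markers, 6 were called higher and 6 lower with DOX. Of 4 hemocyte genes 3 were called higher and 1 lower, and of 6 testis genes 3 were called lower.

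**Figure D3:**
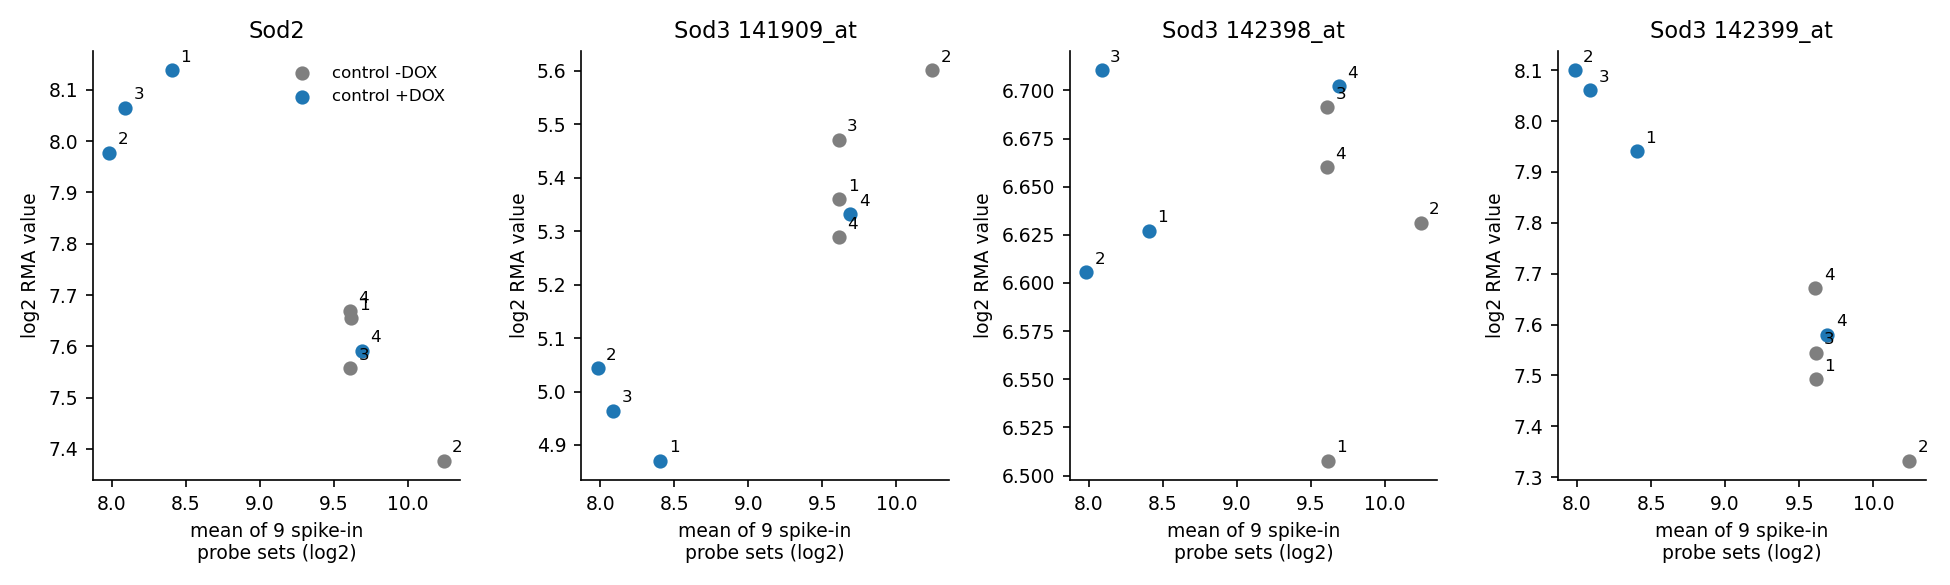
Log2 RMA value of Sod2 and of the 3 Sod3 probe sets against the mean of 9 spike-in probe sets (log2) on the 8 control arrays, with the replicate number beside each point. Control +DOX replicate 4, at a spike-in mean of 9.69, lay near the control -DOX arrays for Sod2, 141909_at and 142399_at, and replicates 1 to 3 lay apart at 7.98 to 8.41.

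To separate MnSOD from DOX, the change of control flies was subtracted from that of the MnSOD line. Sod2 remained called, at 3.69 at day 73 and 3.44 at day 83, or 12.9-fold and 10.9-fold, and at 4.45 and 4.20 with the control groups exchanged. No Sod3 probe set was called, while 2 of the 3 had an unadjusted p under 0.05 at day 73 and 3 at day 83. At day 73 the corrected changes were 0.30 for 141909_at (adjusted p = 0.0997), -0.11 for 142398_at (adjusted p = 0.491) and -0.44 for 142399_at (adjusted p = 0.0227). At day 83 they were 0.40 (adjusted p = 0.0171), -0.32 (adjusted p = 0.0281) and -0.41 (adjusted p = 0.0188). Of all probe sets, 2.22% were called higher and 3.78% lower at day 73, and 8.13% higher and 9.49% lower at day 83.

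The corrected values of 141909_at and 142399_at carry the control change with its sign turned. Exchanging the control groups gave -0.46 and 0.38 at day 73 (adjusted p = 0.0120 and 0.0346) and -0.35 and 0.41 at day 83 (adjusted p = 0.0337 and 0.0189). The direction of these 2 corrected values therefore depends on the naming of the control groups. Without control +DOX replicate 4 they rose in size: 142399_at was called at -0.56 at day 73 and at -0.52 at day 83, and 141909_at was called at 0.50 at day 83. The direct changes of the MnSOD line at both ages use no control array in their estimate.

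Between the lines, no Sod3 probe set was called, while 3 of the 3 had an unadjusted p under 0.05 without DOX and 1 with DOX. Without DOX, 142398_at read 6.81 to 6.89 in the MnSOD line, above all 8 control arrays at 6.51 to 6.71. The difference from control -DOX flies was 0.24 (adjusted p = 0.0414, exact permutation p = 0.0286). The other differences were -0.21 for 141909_at (adjusted p = 0.110) and 0.21 for 142399_at (adjusted p = 0.132). With DOX at day 73 the 3 differences lay between -0.24 and 0.13, with adjusted p from 0.0590 to 0.493. Without control +DOX replicate 4, that of 142399_at was called at -0.35 (adjusted p = 0.00140). With the control groups exchanged, the differences of 141909_at and 142399_at turned sign in both comparisons, to 0.17 and -0.20 without DOX and to -0.29 and 0.17 with DOX, and none of these was called.

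**Figure D4:**
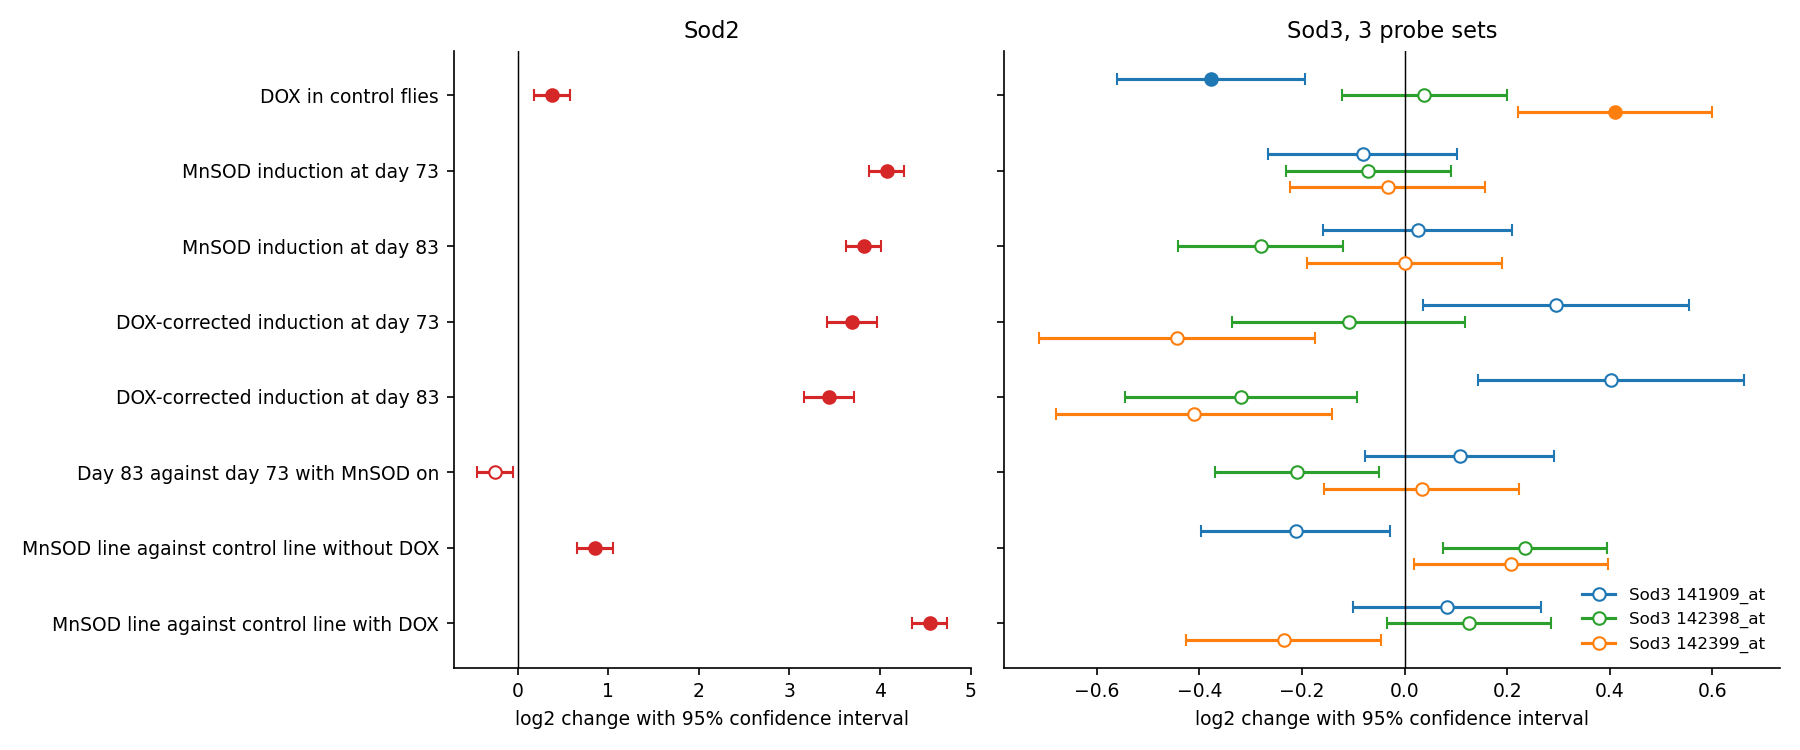
Log2 change with its 95% confidence interval in each of 8 comparisons, for Sod2 (left) and the 3 Sod3 probe sets (right, on an expanded scale), with filled points for called changes. Sod2 was called in every comparison but that of day 83 with day 73, and Sod3 in DOX in control flies alone, at -0.38 for 141909_at and 0.41 for 142399_at as labelled, with signs turned if the control groups are exchanged.

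Genes that work beside the dismutases were counted from lists of copper and manganese supply, superoxide production, peroxide removal, superoxide-sensitive enzymes, stress regulators and glutathione synthesis. Of 44 listed genes 34 were measured. With induction at day 73 of age, 0 of the 34 were called in limma. There 7 had an unadjusted p under 0.05 and 0 an adjusted p under 0.05. The median change was 0.02 against -0.00 over all probe sets. At day 83, 1 was called higher and 1 lower, with a median of 0.01 against -0.04. Over all probe sets, 0.2% were called higher and 0.464% lower at day 73, and 3.01% and 6.26% at day 83. Acon, the mitochondrial aconitase whose iron-sulfur cluster superoxide attacks, was higher by 0.38 (adjusted p = 0.00303). Ctr1B, a copper importer, was lower by 0.51 (adjusted p = 0.000298). Between induced flies of day 83 and day 73, 0 were called in limma, where 9 had an unadjusted p under 0.05. The shares over all probe sets were 0.949% higher and 2.74% lower.

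Acon read 10.66, 10.71, 10.46 and 10.60 in MnSOD -DOX flies. With DOX it read 10.83, 10.96, 10.87 and 10.85 at day 73 and 10.89, 10.96, 11.05 and 11.06 at day 83. Both induced groups lay wholly above the uninduced group, while the change at day 73, of 0.27, was not called (adjusted p = 0.135). Ctr1B read 7.84, 7.67, 7.79 and 7.80 without DOX and 7.17, 7.36, 7.28 and 7.27 at day 83, with no overlap.

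The copper and zinc dismutases and their helpers in the list gave no call with induction. Ccs, the chaperone that loads copper into Sod1, changed by -0.07 at day 73 (adjusted p = 0.933) and by -0.24 at day 83 (adjusted p = 0.0576). Sodq, a dismutase-related gene, changed by -0.15 (adjusted p = 0.654) and -0.11 (adjusted p = 0.394). Sh3beta, which the study names as a putative copper and zinc SOD, changed by -0.08 (adjusted p = 0.975) and -0.05 (adjusted p = 0.868). Cat, the main catalase, changed by 0.06 (adjusted p = 0.938) and 0.08 (adjusted p = 0.482). None of the 4 was called at either age. For Ccs the arrays at day 83, at 4.36 to 4.47, nevertheless lay below those without DOX, at 4.54 to 4.84.

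In control flies the same lists held 9 genes called higher and 2 called lower with DOX, with a median of 0.16 against -0.05 over all probe sets, of which 12.1% were called higher and 14.1% lower. They held 2 higher and 9 lower with the control groups exchanged. As labelled, the largest were Irc, an immune-regulated catalase, at 1.14 (adjusted p = 3.77e-07), and Sh3beta at 1.10 (adjusted p = 0.000161). Hsf, the heat shock transcription factor, was at 0.67, and Keap1, which restrains the antioxidant factor encoded by cnc, was at 0.66. Irc read 9.17, 8.80, 8.55 and 9.01 without DOX and 10.29, 9.91, 10.03 and 9.85 with it. Control +DOX replicate 4, at 9.85, was above every control -DOX array for Irc, unlike for Sod2, 141909_at and 142399_at.

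After subtraction of the control change, 1 of the 34 was called higher and 4 lower at day 73, and 2 higher and 7 lower at day 83. Over all probe sets the shares were 2.22% and 3.78% at day 73, and 8.13% and 9.49% at day 83. As labelled, the largest were Irc at -1.38 and -1.51 and Sh3beta at -1.18 and -1.16. Gclm, the modifier subunit of glutamate-cysteine ligase, was at -0.88 and Hsf at -0.65 at day 73, and Keap1 at -0.82 and Acon at 0.73 at day 83. Exchanging the control groups made it 6 higher and 0 lower at day 73, and 4 higher and 1 lower at day 83. It turned Irc to 0.89 and 0.77, Sh3beta to 1.02 and 1.05, Hsf at day 73 to 0.68, Gclm at day 73 to 0.23 and Keap1 at day 83 to 0.50, and left Acon at day 83 at 0.033. Of these, the values of Irc, Sh3beta and Hsf were called. Between the lines without DOX, Irc was higher by 0.58 and Trx2, a thioredoxin, was lower by 0.33 in the MnSOD line. With DOX, 3 were higher and 7 lower, led by Irc at -0.80, Gclm at -0.80, Keap1 at -0.68 and the metal-responsive factor MTF-1 at -0.51. The shares over all probe sets were 3.21% higher and 3.33% lower without DOX, and 5.36% and 6.7% with it. With the control groups exchanged these counts became 1 higher and 7 lower without DOX, and 2 higher and 0 lower with it. Irc then stood at -0.56 and Trx2 at -0.42 without DOX, both called, and with DOX Irc stood at 0.33, Gclm at -0.24, Keap1 at -0.018 and MTF-1 at 0.11, none of them called.

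**Figure D5:**
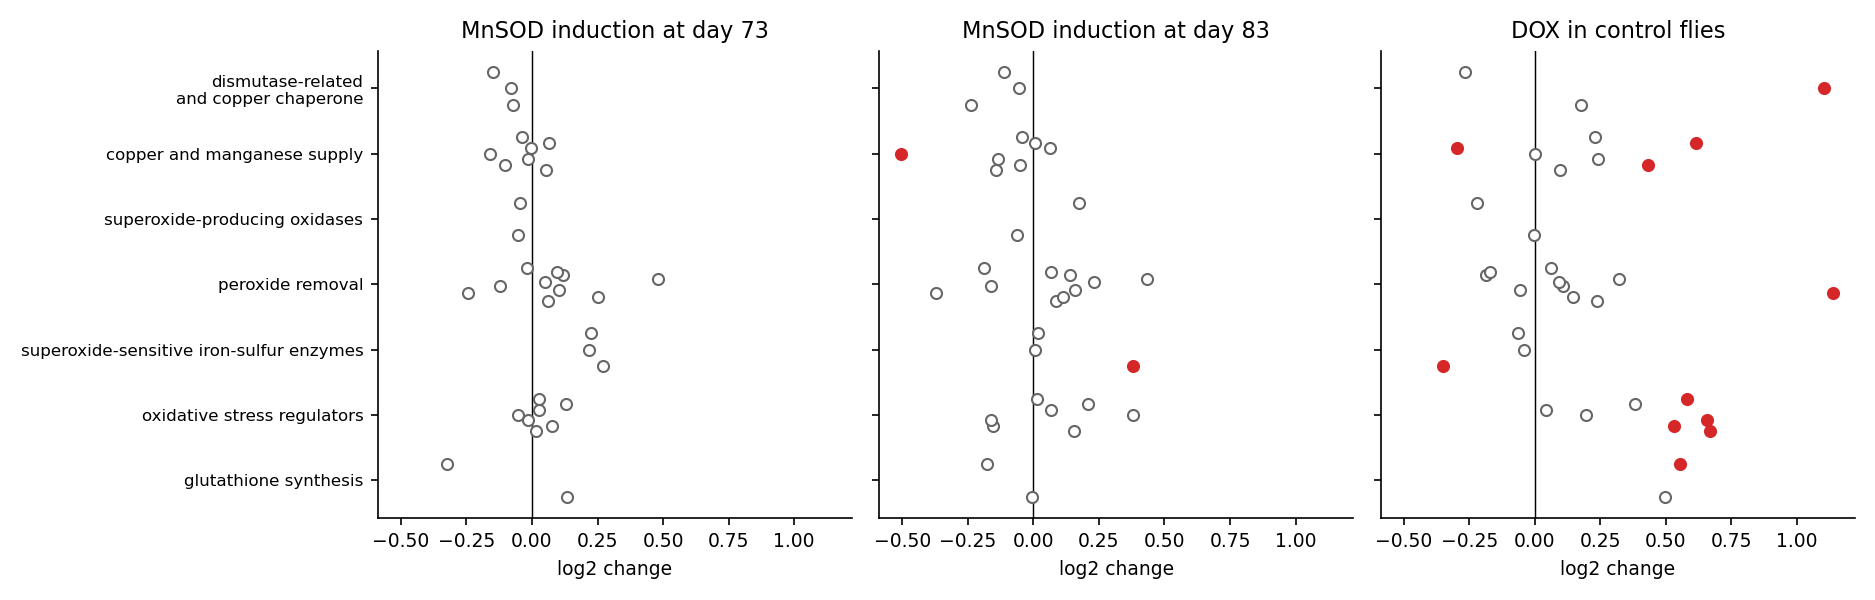
Log2 change of each of the 34 measured genes around the dismutases, by list, with filled points for called changes. Panels show MnSOD induction at ages of day 73 and day 83, and DOX in control flies. No gene was filled at day 73, 2 were at day 83 (Ctr1B at -0.51 and Acon at 0.38), and 11 were with DOX in control flies, where signs turn if the control groups are exchanged.

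The probe sets most like each dismutase across the 20 arrays were found by Pearson correlation, as a description with no test. For Sod2 they were FeCH (r = 0.897), CG4363 (r = 0.864) and Sirup (r = 0.863). FeCH encodes ferrochelatase, the mitochondrial enzyme that puts iron into heme, and Sirup encodes an assembly factor of succinate dehydrogenase. Sod2 falls into an induced and an uninduced cluster, which these values span, and deviations from the group means correlated at 0.651, -0.04 and 0.447. FeCH had group means of 6.64 in MnSOD -DOX flies, and of 7.07 at day 73 and 7.17 at day 83 in MnSOD +DOX flies.

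Each Sod3 probe set had its own neighbours. For 141909_at they were CG16758, CG12519 and CG43861 (r = 0.951, 0.930 and 0.920), and for 142398_at they were l(1)G0004, neur and Axs (r = 0.913, 0.889 and 0.884). For 142399_at they were CCT4, which encodes a subunit of the cytosolic chaperonin, CG7675 and Ada2b (r = 0.904, 0.900 and 0.891). No gene stood among the 3 nearest of more than 1 Sod3 probe set. Within groups these 9 correlations were 0.737 to 0.918.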

How the data were processed

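RNA of 30 adult males per sample was measured on 20 DrosGenome1 arrays, 4 for each of 5 groups taken from the sample labels. The authors normalized all arrays by RMA (affy package, version not given in the sources used here) and deposited the log2 values together, and all 20 columns were used. Intensities before RMA were not analysed here. RMA forces arrays to a like distribution, so that changes are relative to the other probe sets, and the number of arrays limits the precision.

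All 14010 probe sets entered 1 limma 3.58.1 model in R 4.3.3 with a mean per group, followed by empirical Bayes moderation and Benjamini-Hochberg adjustment in each of 8 comparisons. The threshold for a call was that of the study's methods, an adjusted p below 0.01 with at least a 1.2-fold change. Exact permutation tests and tables used scipy 1.17.1, numpy 2.4.6 and pandas 2.3.3 under Python 3.11.15, and figures matplotlib 3.10.9. The fit was tested on simulated data.

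Genes were named from the platform annotation, updated through RefSeq identifiers: 12444 probe sets name 1 gene, 327 several and 1239 none. A listed gene with more than 1 was read from that of highest mean, except that every probe set of Sod3 is given. No sequences are shown, as none were used here.

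The members and lists were chosen with earlier results of these data known, as were the exchange of the control groups, the spike-in covariate and the single control +DOX array. Named list genes are up to 4 called ones per comparison by size of change, and for each member the 3 most correlated probe sets. Ccs, Sodq and Cat, with the values of Acon, Ctr1B, Irc and Sh3beta in further comparisons, were added after their values were seen. Further alternatives were fits without each array, without the lowest 40% of probe sets or without the AFFX controls, on the compared arrays alone, and with a replicate block, array weights, 2 other normalizations, another variance model or a looser threshold.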

Additional observations from a re-analysis of the deposited data

Results flagged for a closer look

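Sod2 responded to DOX differently in the MnSOD line and in control flies. The difference between its changes in the 2 lines was 3.69 on the log2 scale at day 73 (adjusted p = 7.41e-15 in limma) and 3.44 at day 83 (adjusted p = 1.77e-14), with all 4 induced arrays above all 4 uninduced arrays at each age. The DOX-responsive transgene is present in the MnSOD line alone. No array was an outlier by Dixon's test among its 4 replicates in any of the 20 combinations of probe set and group, where chance would give about 1.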

How the results depend on the processing

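Over 32 changes of the 4 probe sets and 34 alternatives, 992 values kept their status as called or not called. Of the rest, 18 gained a call, 18 lost one and 4 reversed a called change. Many of the 992 were uncalled in both fits, and leaving out an array outside a comparison cannot move its estimate. In 28 of the 992 the sign of an uncalled Sod3 value turned, 9 of them with the control groups exchanged. The rises of Sod2 at day 73 and day 83, direct and corrected, and its differences between the lines kept their calls in every refit, and Sod2 between day 83 and day 73 was called in none.

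For DOX in control flies, exchanging the control groups reversed the changes of 141909_at (0.38), 142399_at (-0.41) and Sod2 (-0.38). Read from the other Sod3 probe sets, the change of 142399_at would be -0.38 (141909_at) or 0.039 (142398_at). Calls of 141909_at, 142399_at and Sod2 were lost in a fit of the control arrays alone (-0.38, 0.41 and 0.38, adjusted p = 0.0222, 0.0217 and 0.0304), with the spike-in covariate (-0.085, 0.040 and 0.068) and with replicate 4 as the single control +DOX array (-0.10, 0.070 and 0.027). Quantile normalization lost those of 142399_at (0.23) and Sod2 (0.19). With each array left out, 141909_at ranged from -0.47 to -0.32 and Sod2 from 0.31 to 0.50, and leaving out control -DOX replicate 2, or control +DOX replicate 1 or 3, ended both calls. The cause was not tested.

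Changes of 142398_at at day 83 (-0.28) gained a call with the replicate block (adjusted p = 0.00750), at an adjusted p under 0.05, and without MnSOD +DOX day 73 replicate 1 or control -DOX replicate 1 (range -0.32 to -0.21). The looser threshold also called 142399_at at -0.44 (corrected, day 73) and -0.41 (day 83), 141909_at at 0.40 and 142398_at at -0.32 (corrected, day 83), and 142398_at between the lines without DOX at 0.24. Array weights called 141909_at at 0.36 and 0.42 and 142399_at at -0.52 and -0.48 (corrected, day 73 and day 83), and 142399_at between the lines with DOX at -0.33. Left-out arrays gave -0.56 to -0.38 and -0.52 to -0.35 for the corrected 142399_at at day 73 and day 83, 0.34 to 0.50 for the corrected 141909_at at day 83, and -0.35 to -0.18 for 142399_at between the lines with DOX, each called without control +DOX replicate 4.

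Replicate numbers do not pair the samples: deviations of same-numbered arrays correlated at -0.39 to 0.36 (median -0.04), with 6 of 40 pairs over 0.1. The block changed no other call of a dismutase probe set.

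Counts over all probe sets moved by over 1.5 times under some settings in every comparison. For DOX in control flies, 1692 higher and 1980 lower became 55 to 2656 and 9 to 3668, for induction at day 73, 28 and 65 became 13 to 332 and 49 to 183, and at day 83, 422 and 877 became 215 to 1043 and 504 to 1891. Corrected, 311 and 530 at day 73 became 37 to 1806 and 104 to 1597, and 1139 and 1329 at day 83 became 96 to 2316 and 203 to 2419. Changes of Sod3 below about 0.2 log2 units lie within the confidence intervals of 4 against 4 arrays.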
